A study of Mus musculus with 16 samples.

Results

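The genes described here encode the machinery that copies nuclear DNA: 43 genes chosen by function, grouped into 9 complexes, of 55536 annotated genes in the deposited count table. They were measured by RNA-seq in mouse CD8+ T cells with and without targeting of Tardbp, which encodes the RNA-binding protein TDP-43. The cells were OT-I T cells, which carry 1 transgenic T cell receptor for the ovalbumin peptide SIINFEKL on a Rag-deficient background. They were electroporated with Cas9 and either a scrambled guide (Control, 8 libraries) or a guide against Tardbp (Tardbp gRNA, 8 libraries), and no clone was picked from either group. After recovery they were transferred into C57BL/6J mice, which keep their own T cells. Both groups then received SIINFEKL peptide with agonist antibodies to CD134 (OX40) and CD137 (4-1BB), and the donor cells were sorted as CD8+ CD45.1+ CD45.2+ cells after 4 days by the sample labels, a slightly shorter time by the study's methods. The mice were of both sexes, with ages given only as a range over all mice of the study. The study names individual recipient mice as the source of the cells, but the labels do not tie libraries to animals, so that p-values measure the spread between these libraries.

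Before a cell divides, origins of replication are first licensed and later fired. The origin recognition complex, with Cdc6 and Cdt1, loads the ring-shaped MCM2-7 helicase onto DNA in G1, and geminin keeps Cdt1 from loading it again. At the start of S phase the Cdc7-Dbf4 kinase and the addition of Cdc45 and the GINS complex turn the loaded rings into active helicases. Polymerase alpha-primase then lays the primers, polymerases epsilon and delta extend the leading and lagging strands on the sliding clamp PCNA, RPA covers the bare single strand, and Fen1 and Lig1 finish the lagging strand. Activated CD8+ T cells divide every few hours, and most of these genes are transcribed under control of E2F factors as cells enter S phase.

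As a share of each library's counts, mRNA of nearly the whole replication machinery was lower in the Tardbp gRNA group. All 43 genes passed the filter on low counts, and 41 of them fell: 41 were lower in Tardbp gRNA cells at an adjusted p under 0.05 (edgeR quasi-likelihood test, Benjamini-Hochberg adjusted over 16650 genes), against 3877 of all genes tested, a background of 23.3%. The exceptions were the small subunits Pole4, which rose slightly (the background of genes called higher was 23.5%), and Rpa3, which did not pass the test. The median log2 fold change of the 43 genes was -0.46, with a range from -1.04 to 0.15, beside a median of 0.05 over all genes tested. Of 5542 genes at or above the mean level of the lowest replication gene, 2376 (42.9%) were called lower and their median log2 fold change was -0.08.

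The separation held library by library. For 34 of the 43 genes every Tardbp gRNA library lay below every Control library, which was the case for 10.3% of all genes tested. It was also the case for 1333 of the 5542 genes at or above the mean level of the lowest replication gene. Summed over the 43 genes, the level was 12340.8, 12644 and 13539 CPM (counts per 1e6 counts; lowest, median and highest of 8, scaled by TMM factors) in Control libraries and 8103.3, 8814.9 and 9860.8 CPM in Tardbp gRNA libraries. Their share of all counts was thus 1.219 to 1.306% in Control and 0.828 to 1.006% in Tardbp gRNA libraries, with no overlap. Within the Tardbp gRNA group, libraries 1 and 2 stood closest to Control, with median deviations of -0.30 and -0.35 from the Control mean on the log2 CPM scale, and libraries 4 and 6 stood farthest, both at -0.56. Tardbp gRNA library 1 was the highest of its group for 26 of the 43 genes and library 4 the lowest for 17. In bulk libraries of this kind, fewer cells in S phase and less of these mRNAs per cell cannot be told apart.

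**Figure D1:**
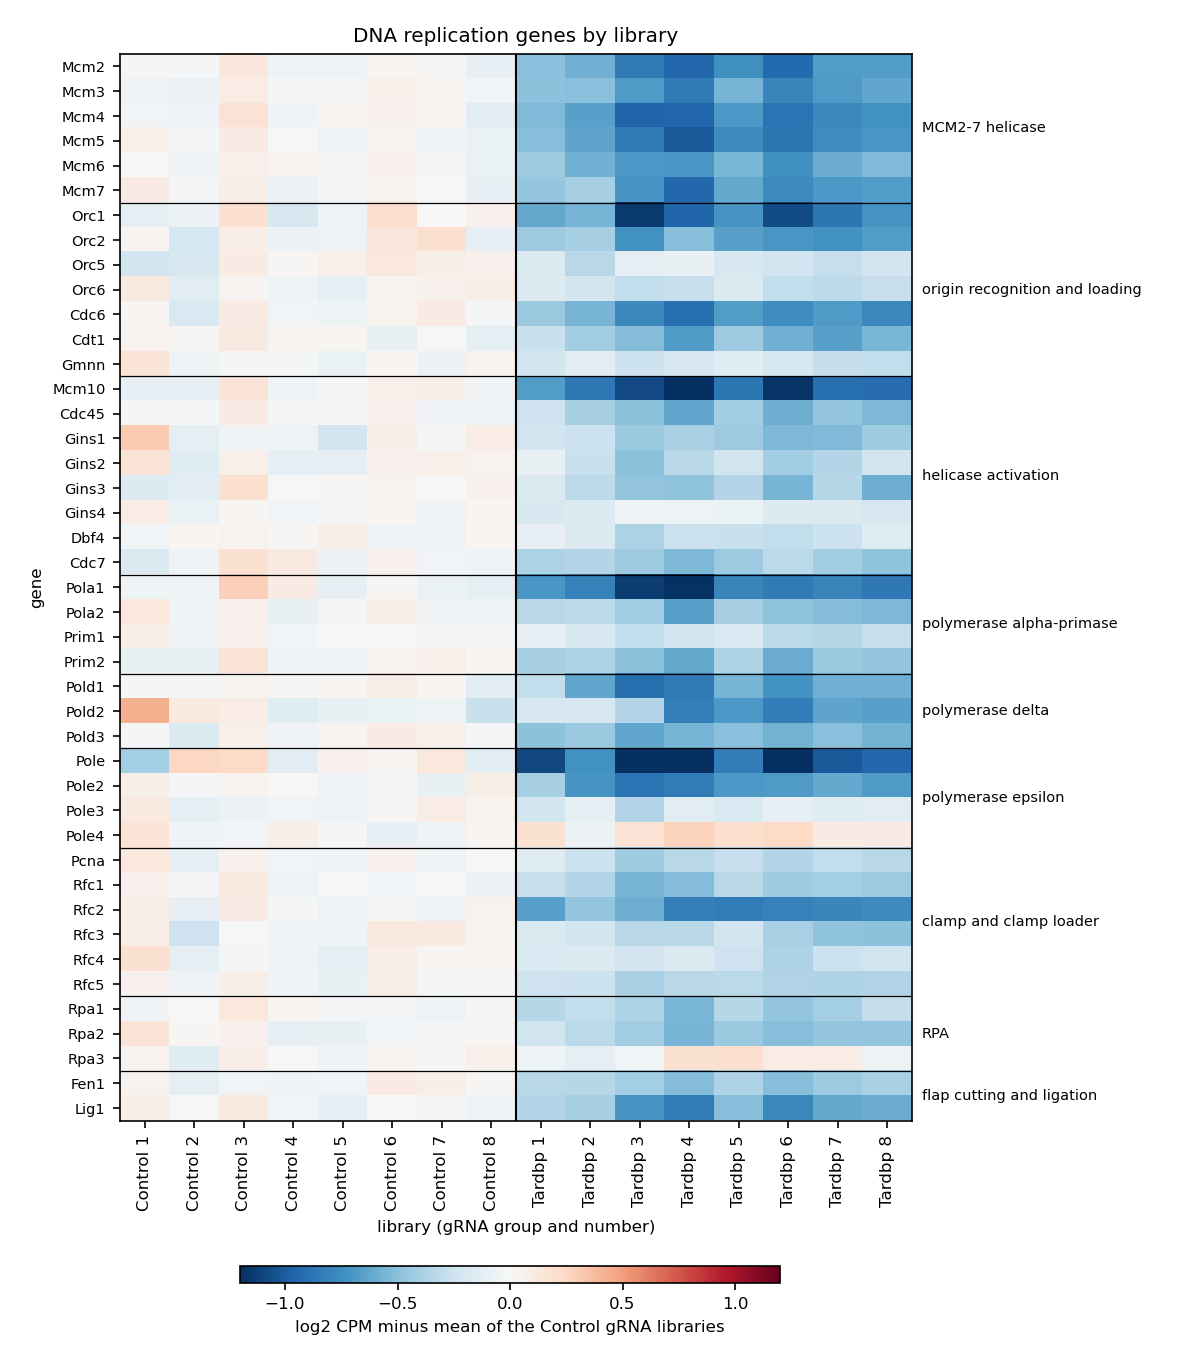
Heat map of log2 CPM minus the mean of the 8 Control libraries, for 43 replication genes (rows, grouped by complex) in 16 libraries (columns). Blue is below the Control mean and red above it. In each Tardbp gRNA column 41 to 43 of the 43 genes are below the Control mean, red cells are in the rows Pole4 and Rpa3, and the depth of blue differs between subunits of 1 complex.

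The cells, the target and the libraries were as follows. Tardbp was at 171.8 to 206.9 CPM in Control and at 110.4 to 147.2 CPM in Tardbp gRNA libraries, a log2 fold change of -0.51 (SE 0.0558, adjusted p = 8.07e-07). Those are mRNA values, and the study reported from an immunoblot that cells given the Tardbp guide did not make the protein. Libraries held 56016533 to 94801105 estimated counts. The RNA concentration in the sequencing facility's deposited sheet, given without a unit, was 34.9 to 197.1 in Control and 10.1 to 24.0 in Tardbp gRNA samples and did not overlap. All 6 CD8 T cell markers (Cd8a, Cd8b1, Cd3d, Cd3e, Cd3g and Cd2) were called higher in Tardbp gRNA libraries (summed 2603.5 to 3252.3 against 3816.4 to 5019.9 CPM). Each list of markers of other cells summed to less than the CD8 T cell markers in every library. Red cell precursor markers summed to 0.924 to 18.3 CPM in Control and 9.65 to 182.4 CPM in Tardbp gRNA libraries, with 4 of 6 tested, the globin genes, called higher and Alas2 at no more than 1.70 CPM. Myeloid markers summed to 14.8 to 36.2 against 19.1 to 79.7 CPM (2 of 5 tested, Lyz2 and S100a8, called higher, Elane at no more than 0.186 CPM). NK cell markers summed to 12.6 to 63.4 against 36.9 to 100.8 CPM (1 of 3 tested, Eomes, called higher). Eomes made up most of the NK cell sum in every library, so the higher sum mainly follows this gene and does not show more NK cells. Ncr1 was at no more than 2.24 CPM, Klrb1c at no more than 2.20 CPM and Klra8 at no more than 0.348 CPM. B cell markers summed to 6.92 to 14.8 against 8.07 to 20.1 CPM and CD4 T cell markers to 4.39 to 20.7 against 6.15 to 15.6 CPM (0 called in either list, Cd4 at no more than 0.601 CPM and Pax5 at no more than 0.0259 CPM). The part of these cells and of the RNA amount in the fall of the replication genes was not tested.

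Mcm2 to Mcm7 encode the 6 subunits of the helicase ring, and all 6 fell, with log2 fold changes from -0.77 to -0.60 (median -0.69). Mcm2 (chr6:88883474-88898780, mm10) was at 710.3 to 835.8 CPM in the Control libraries (median 761.8, mean 761.4 ± 36.8, SD, n = 8) and 395.8 to 538.3 CPM in the Tardbp gRNA libraries (median 466.4, mean 459.2 ± 51.2, n = 8), a log2 fold change of -0.73 (SE 0.0587, adjusted p = 5.46e-08). Mcm3 (chr1:20802968-20820312, mm10) was at 896.6 to 1005.5 CPM in the Control libraries (median 928.3, mean 942.3 ± 36.5, SD, n = 8) and 524.2 to 670.8 CPM in the Tardbp gRNA libraries (median 601.0, mean 604.2 ± 53.3, n = 8), a log2 fold change of -0.64 (SE 0.0484, adjusted p = 3.41e-08). Mcm4 (chr16:15623897-15637400, mm10) was at 684.7 to 847.9 CPM in the Control libraries (median 751.7, mean 756.2 ± 47.6, SD, n = 8) and 389.0 to 521.9 CPM in the Tardbp gRNA libraries (median 448.8, mean 444.4 ± 46.9, n = 8), a log2 fold change of -0.77 (SE 0.0591, adjusted p = 3.74e-08). For each of these 3 genes the highest Tardbp gRNA library, library 1, was still well under the lowest Control library. Mcm5 (chr8:75109569-75128439, mm10) was at 1097.0 to 1243.1 CPM in the Control libraries (median 1159.6, mean 1163.3 ± 47.4, SD, n = 8) and 575.5 to 817.8 CPM in the Tardbp gRNA libraries (median 689.0, mean 689.1 ± 75.5, n = 8), a log2 fold change of -0.76 (SE 0.0566, adjusted p = 3.27e-08). Mcm6, the most abundant of the 6 in CPM (chr1:128331590-128359664, mm10), was at 1292.9 to 1423.4 CPM in the Control libraries (median 1368.7, mean 1364.7 ± 45.9, SD, n = 8) and 814.6 to 1010.6 CPM in the Tardbp gRNA libraries (median 907.6, mean 899.9 ± 64.8, n = 8), a log2 fold change of -0.60 (SE 0.0413, adjusted p = 1.62e-08). Mcm7 (chr5:138164583-138172422, mm10) was at 655.1 to 753.1 CPM in the Control libraries (median 697.5, mean 701.7 ± 31.9, SD, n = 8) and 365.2 to 530.9 CPM in the Tardbp gRNA libraries (median 436.9, mean 447.6 ± 52.5, n = 8), a log2 fold change of -0.65 (SE 0.0605, adjusted p = 1.75e-07). Here too no Tardbp gRNA library reached the Control range. Per length of transcript the subunits lay at 348.2 to 701.0 TPM (transcripts per 1e6, scaled by transcript length) in Control, and kept their order of Mcm6, Mcm5, Mcm3, Mcm7, Mcm2 and Mcm4 in Tardbp gRNA cells at 196.1 to 445.1 TPM. The exons of Mcm7 overlap those of Cops6 and Ap4m1 on the opposite strand, and the library kit kept no strand, so reads in the shared bases cannot be assigned to either gene.

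**Figure D2:**
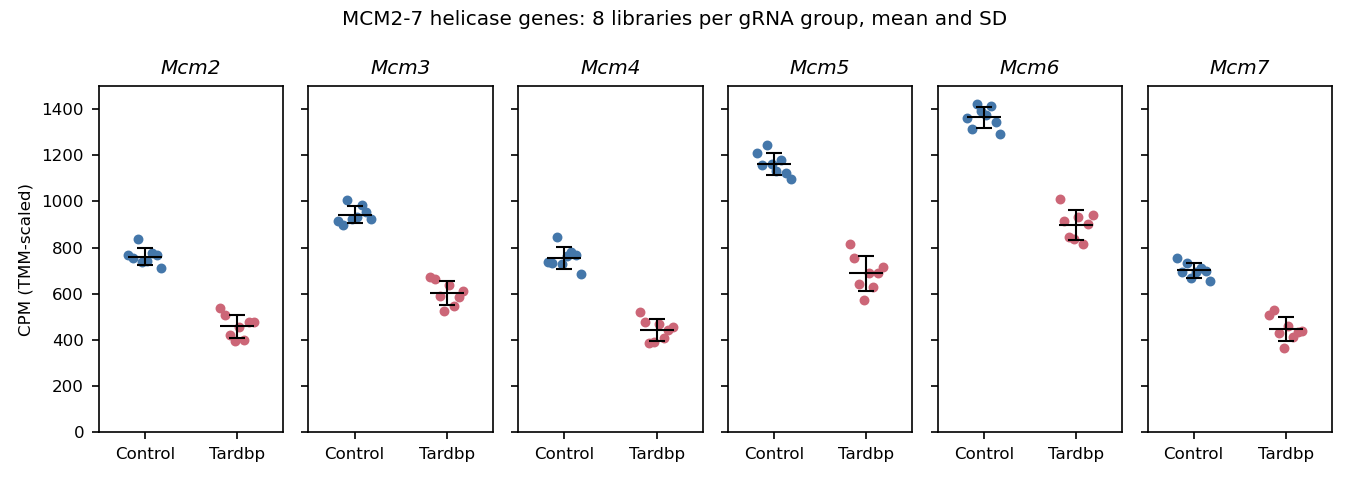
CPM of Mcm2 to Mcm7 in each library (points, in order of library number; axis from 0), with the group mean and SD (bars, n = 8). In all 6 genes the Tardbp gRNA points lie under the Control points with a gap between the groups, at 58.8 to 65.9% of the Control mean.

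Of the genes that recognise origins and load the helicase, 7 of 7 fell (median -0.51), but unevenly. Orc1, the cell-cycle-regulated subunit of the origin recognition complex, was at 58.3, 65.7 and 75.9 CPM in Control and 30.0, 38.6 and 45.3 CPM in Tardbp gRNA libraries (lowest, median, highest), a log2 fold change of -0.82 (SE 0.0859, adjusted p = 5.37e-07). Orc2 fell by less, with a log2 fold change of -0.60 (SE 0.0654). Orc6 and Orc5 had log2 fold changes of -0.25 (SE 0.0422) and -0.21 (SE 0.0571), and for Orc5 the groups overlapped. The exons of Orc6 overlap those of Vps35 on the opposite strand, which had more counts (321090 against 186572 over all libraries). The loader Cdc6 (chr11:98907801-98923940, mm10) was at 196.4 to 238.1 CPM in the Control libraries (median 222.6, mean 222.2 ± 13.4, SD, n = 8) and 118.8 to 162.2 CPM in the Tardbp gRNA libraries (median 135.4, mean 137.7 ± 13.4, n = 8), a log2 fold change of -0.69 (SE 0.0567, adjusted p = 6.06e-08). Cdt1, which brings the helicase to the origin (chr8:122568015-122573554, mm10), was at 114.6 to 133.0 CPM in the Control libraries (median 124.7, mean 123.6 ± 5.97, SD, n = 8) and 77.1 to 102.2 CPM in the Tardbp gRNA libraries (median 85.2, mean 86.8 ± 8.13, n = 8), a log2 fold change of -0.51 (SE 0.0538, adjusted p = 5.79e-07). Geminin (Gmnn), the inhibitor of Cdt1 (chr13:24751845-24761923, mm10), was at 179.3 to 210.3 CPM in the Control libraries (median 189.5, mean 189.5 ± 10.1, SD, n = 8) and 153.3 to 173.1 CPM in the Tardbp gRNA libraries (median 163.2, mean 162.7 ± 7.16, n = 8), a log2 fold change of -0.22 (SE 0.0389, adjusted p = 1.44e-04). All Tardbp gRNA libraries were below all Control libraries for Cdc6, Cdt1 and Gmnn, but Cdc6 dropped to 62.0% of its Control mean and Gmnn to 85.9%.

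Among the genes that activate the loaded helicase, 8 of 8 fell (median -0.41), and Mcm10 fell most. Mcm10, a scaffold needed for the helicase to start unwinding (chr2:4989714-5012791, mm10), was at 166.9 to 198.7 CPM in the Control libraries (median 177.7, mean 179.8 ± 11.1, SD, n = 8) and 77.4 to 113.1 CPM in the Tardbp gRNA libraries (median 95.9, mean 93.0 ± 11.8, n = 8), a log2 fold change of -0.95 (SE 0.0686, adjusted p = 2.75e-08). No Tardbp gRNA library reached the Control range. Cdc45, the helicase cofactor (chr16:18780447-18811987, mm10), was at 174.5 to 194.1 CPM in the Control libraries (median 180.1, mean 181.8 ± 6.41, SD, n = 8) and 118.2 to 153.1 CPM in the Tardbp gRNA libraries (median 130.7, mean 131.6 ± 11.1, n = 8), a log2 fold change of -0.47 (SE 0.0473, adjusted p = 3.95e-07). The 4 GINS subunits, which join Cdc45 on the helicase, fell less, with log2 fold changes of -0.41 (SE 0.0702) for Gins1, -0.30 (SE 0.0578) for Gins2, -0.41 (SE 0.0640) for Gins3 and -0.13 (SE 0.0367) for Gins4. Gins4 (chr8:23226616-23237659, mm10) was at 104.0 to 117.5 CPM in the Control libraries (median 110.6, mean 110.3 ± 3.99, SD, n = 8) and 96.2 to 106.9 CPM in the Tardbp gRNA libraries (median 98.3, mean 100.6 ± 4.44, n = 8) with an adjusted p of 0.00612, and 5 of its 8 Tardbp gRNA libraries lay under the lowest Control library. The groups also overlapped for Gins1 and Gins2. Of the kinase pair that triggers firing, Cdc7 had a log2 fold change of -0.42 (SE 0.0493) and its activator Dbf4 -0.24 (SE 0.0407), both without overlap.

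The log2 fold changes of the polymerase genes differed widely between subunits of 1 complex. The 3 replicative catalytic subunits all fell: Pole, of polymerase epsilon, by the largest amount of the 43 genes, followed within its class by Pola1 of polymerase alpha and Pold1 of polymerase delta. Pole (chr5:110286306-110337474, mm10) was at 79.4 to 125.5 CPM in the Control libraries (median 108.0, mean 106.2 ± 15.6, SD, n = 8) and 43.3 to 63.6 CPM in the Tardbp gRNA libraries (median 50.8, mean 51.7 ± 7.20, n = 8), a log2 fold change of -1.04 (SE 0.0968, adjusted p = 1.73e-07). Control library 1 was the lowest Control library for Pole and was still above every Tardbp gRNA library. Pola1 (chrX:93304767-93632155, mm10) was at 93.8 to 124.6 CPM in the Control libraries (median 99.0, mean 102.6 ± 10.2, SD, n = 8) and 44.8 to 62.7 CPM in the Tardbp gRNA libraries (median 57.5, mean 55.4 ± 6.33, n = 8), a log2 fold change of -0.89 (SE 0.0745, adjusted p = 7.40e-08). Pold1 was at 244.8, 269.0 and 281.9 CPM in Control and 143.1, 176.3 and 217.4 CPM in Tardbp gRNA libraries, a log2 fold change of -0.63 (SE 0.0661, adjusted p = 5.75e-07). Its Tardbp gRNA values spread widely but stayed below Control.

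The accessory subunits followed in part. Pole2, which binds Pole directly, had a log2 fold change of -0.68 (SE 0.0582). The histone-fold subunits of the same polymerase were closer to 0. Pole3 fell, with a log2 fold change of -0.17 (SE 0.0445) and overlapping groups. Pole4 (chr6:82618992-82705365, mm10) was at 146.8 to 176.0 CPM in the Control libraries (median 154.4, mean 157.4 ± 9.28, SD, n = 8) and 149.4 to 191.0 CPM in the Tardbp gRNA libraries (median 177.2, mean 174.7 ± 12.8, n = 8), a log2 fold change of 0.15 (SE 0.0489, adjusted p = 0.0166). Pole4 was thus called higher, but its groups overlapped and the call was lost without Control library 8 or without Tardbp gRNA library 1, 4, 5 or 6 (adjusted p = 0.0565 to 0.0874). In polymerase alpha-primase the B subunit Pola2 (-0.46, SE 0.0484) and the primase subunits Prim2 (-0.47, SE 0.0480) and Prim1 (-0.24, SE 0.0377) fell less than Pola1, with no overlap in any of them. In polymerase delta Pold3 (-0.53, SE 0.0390) and Pold2 (-0.54, SE 0.109) fell by about as much as Pold1, and the groups overlapped for Pold2, whose libraries 1 to 3 were the highest of their group in both groups. Per length, the Control levels of the epsilon subunits ran from 25.8 TPM for Pole and 77.0 TPM for Pole2 to 78.3 TPM for Pole3 and 180.0 TPM for Pole4, and the Tardbp gRNA levels were 12.9, 46.1, 67.1 and 187.4 TPM.

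All 6 genes of the clamp and its loader fell (median -0.33). Pcna, the clamp (chr2:132249162-132253314, mm10), was at 624.9 to 737.7 CPM in the Control libraries (median 668.2, mean 675.0 ± 36.0, SD, n = 8) and 500.4 to 607.9 CPM in the Tardbp gRNA libraries (median 541.7, mean 546.6 ± 30.9, n = 8), a log2 fold change of -0.30 (SE 0.0406, adjusted p = 7.26e-06). A pseudogene, Pcna-ps2, took 18664 counts over the 16 libraries, and reads may have been divided between it and Pcna. Of the loader subunits, Rfc2 fell most, at 281.7, 300.6 and 323.8 CPM in Control and 168.1, 176.7 and 218.2 CPM in Tardbp gRNA libraries (lowest, median, highest), a log2 fold change of -0.71 (SE 0.0524, adjusted p = 2.97e-08). The other 4 subunits of the same ring fell by less, with log2 fold changes of -0.41 (SE 0.0439) for the large subunit Rfc1, -0.33 (SE 0.0575) for Rfc3, -0.33 (SE 0.0336) for Rfc5 and -0.24 (SE 0.0439) for Rfc4, and only Rfc3 overlapped. The exons of Rfc4 overlap those of Eif4a2 on the opposite strand.

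RPA, the single-strand binding trimer, also differed by subunit. Rpa1 (-0.38, SE 0.0393) and Rpa2 (-0.43, SE 0.0464) fell without overlap. Rpa3, the smallest subunit (chr6:8255936-8259173, mm10), was at 82.8 to 97.3 CPM in the Control libraries (median 92.7, mean 92.0 ± 4.54, SD, n = 8) and 84.8 to 104.8 CPM in the Tardbp gRNA libraries (median 93.8, mean 94.6 ± 7.61, n = 8), a log2 fold change of 0.04 (SE 0.0504, adjusted p = 0.554). It was not called, and its groups overlapped from 84.8 to 97.3 CPM. The nuclease Fen1 (-0.41, SE 0.0379) and the ligase Lig1 (-0.59, SE 0.0619), which process Okazaki fragments, both fell without overlap, and Fen1 shares bases with Tmem258 on the opposite strand.

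**Figure D3:**
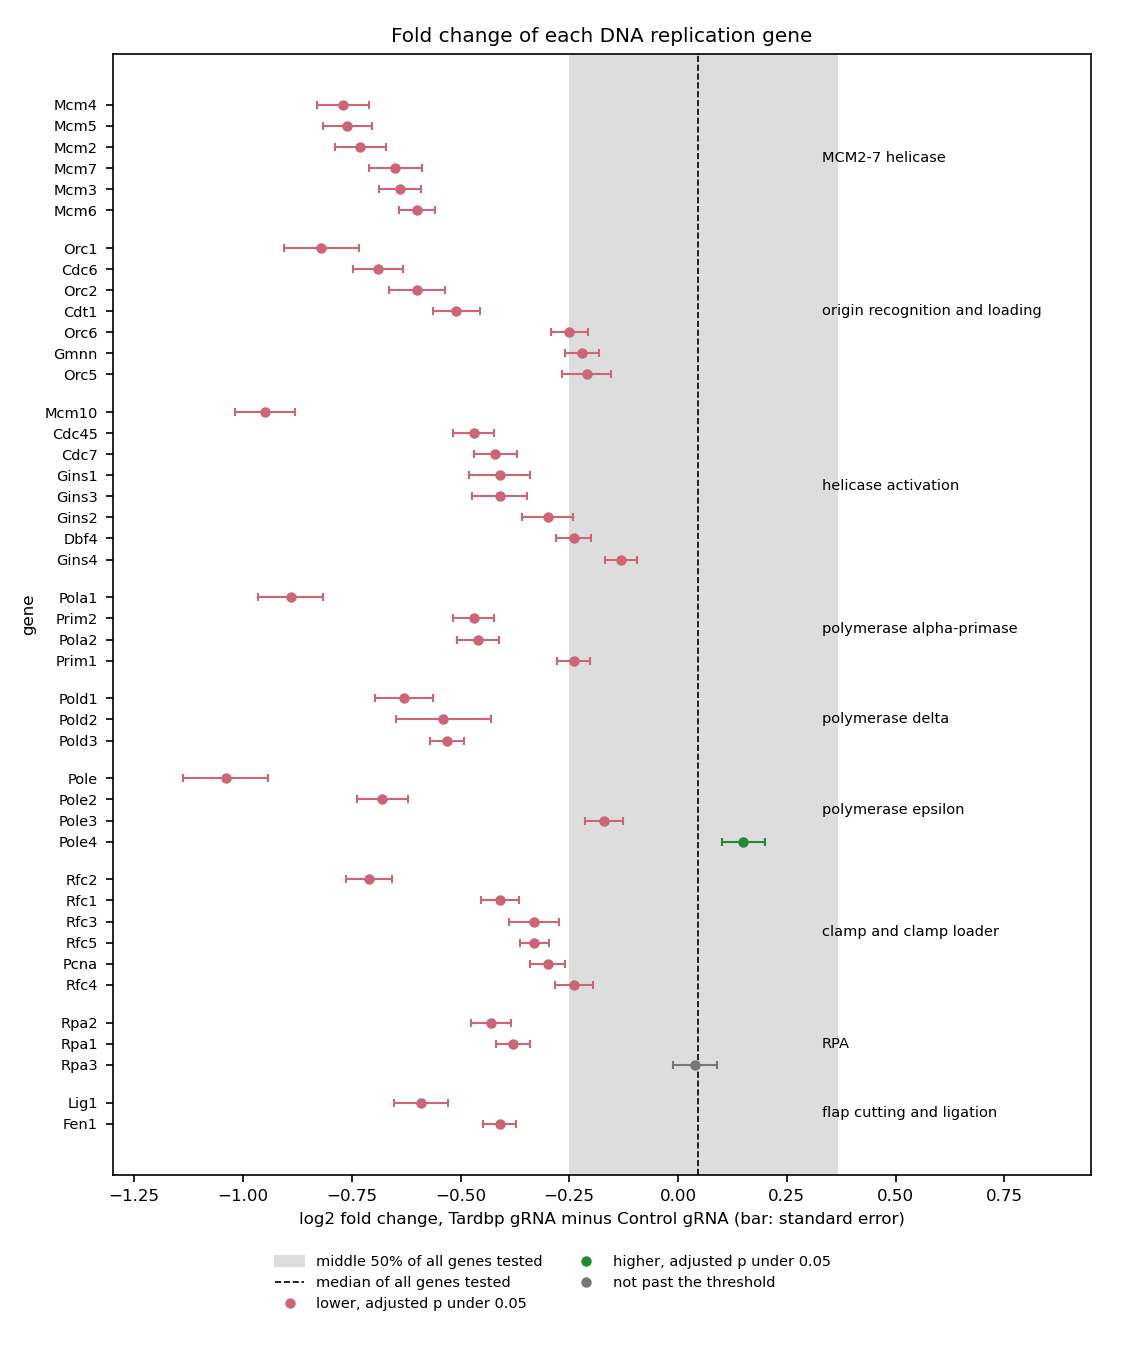
Log2 fold change of each replication gene, Tardbp gRNA minus Control (points; bars are the standard error of the edgeR fit, 8 libraries per group), grouped by complex. The dashed line is the median of all 16650 genes tested (0.05) and the grey band their middle 50% (-0.25 to 0.36). The 6 MCM genes lie between -0.77 and -0.60, while polymerase epsilon spans from -1.04 (Pole) to 0.15 (Pole4).

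Genes with longer transcripts had lower log2 fold changes. Over the 43 genes the log2 fold change and the mean transcript length (weighted by counts) had a Spearman correlation of -0.66, a description across genes that share the same 16 libraries. The same correlation was -0.25 over 16640 genes tested and -0.42 over the 5540 of them that were at least as highly expressed as the lowest replication gene. In each range of length the median of the replication genes was below that of these 5540 genes in the same range. Only a lowest level was set, so levels were not matched. The median Control level was 64.4 TPM in the 5542 genes at or above that level and 135.0 TPM in the replication genes. Between 1000 and 2000 bases, 13 replication genes had a median log2 fold change of -0.33 beside 0.03 for 1393 genes. Between 2000 and 4000 bases, 22 had a median of -0.56 beside -0.14 for 2356 genes, and above 4000 bases 6 had a median of -0.70 beside -0.27 for 1230 genes. When each library's smooth trend on transcript length was removed from log2 CPM and the genes were tested with limma, a step chosen after seeing the data, 42 of 43 replication genes were lower with a median of -0.50. Pole and Mcm10 were then at -0.92 and -0.85. Both calls outside the 41 changed. Pole4 was at 0.06 (adjusted p = 0.261) and Rpa3, 670 bases long, was called lower at -0.14 (adjusted p = 0.0132).

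**Figure D4:**
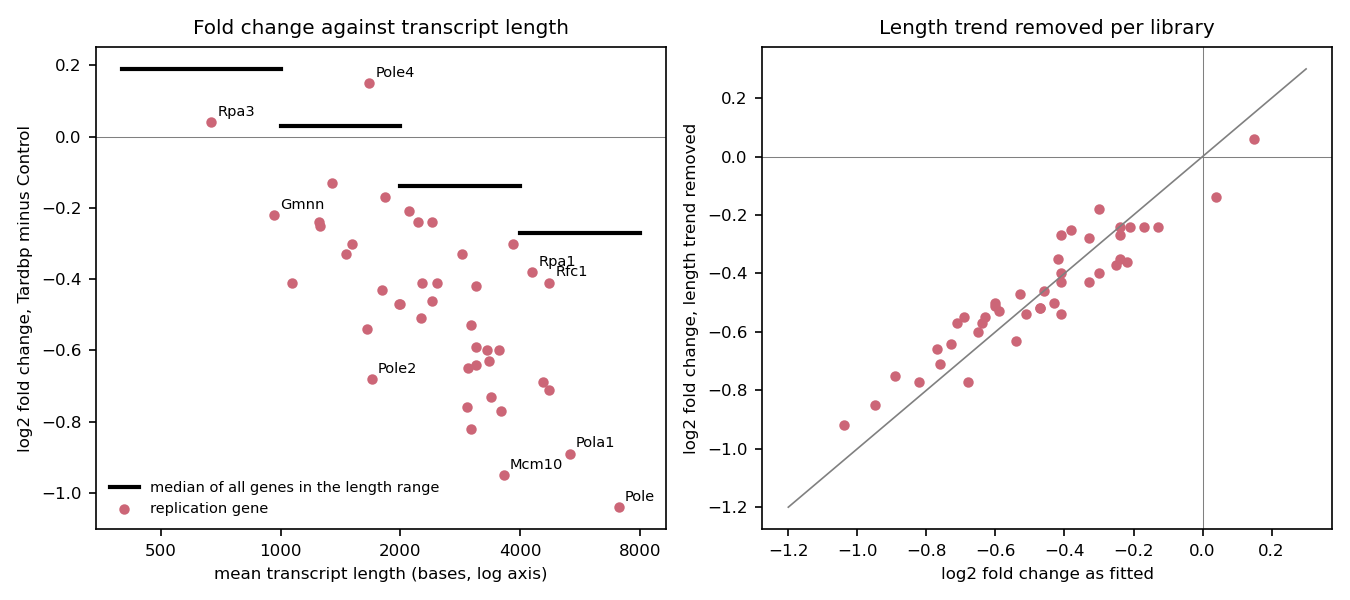
Left, log2 fold change of the 43 replication genes (points) against mean transcript length in bases (log axis). Black lines are medians, in 4 length ranges, of all genes at or above the lowest replication gene's mean level. Of the 43 points, Pole4 alone lies above the line of its range. Right, the same fold changes before (x) and after (y) removal of each library's length trend, with the line of equality. After removal the points run from -0.92 to 0.06.

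Many replication genes share short promoter motifs, and a few stretches are shown because they carry the words that E2F factors are known to bind. RefSeq promoter windows (GRCm38.p6, 250 bases before to 50 after the start) matched 35 of the 43 genes. The 8 without a window were Mcm4, Gmnn, Gins1, Gins2, Gins4, Prim2, Rfc2 and Pole, which fell most of all 43. They are left out of the counts of words. The E2F words searched were TTTCGCGC, TTTGGCGC, TTTCCCGC and TTTGCCGC on both strands, and words may overlap. In each stretch, 5′ to 3′ along the gene, the words are in capitals.
Orc1, chr4:108579401-108579453, strand +: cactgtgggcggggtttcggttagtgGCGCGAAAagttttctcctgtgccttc
Cdc6, chr11:98907987-98908046, strand +: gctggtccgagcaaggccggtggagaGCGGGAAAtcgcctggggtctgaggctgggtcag
Mcm5, chr8:75109330-75109393, strand +: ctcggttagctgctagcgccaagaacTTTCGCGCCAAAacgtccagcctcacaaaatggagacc
Mcm6, chr1:128359719-128359841, strand -: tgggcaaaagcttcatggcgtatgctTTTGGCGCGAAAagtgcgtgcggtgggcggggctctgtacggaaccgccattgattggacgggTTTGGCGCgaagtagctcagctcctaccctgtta
Gins3, chr8:95633492-95633551, strand +: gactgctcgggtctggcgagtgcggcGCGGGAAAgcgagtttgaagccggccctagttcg
Pola1, chrX:93632260-93632319, strand -: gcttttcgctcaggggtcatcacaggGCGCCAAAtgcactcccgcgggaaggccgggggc
Pole4, chr6:82652875-82652934, strand -: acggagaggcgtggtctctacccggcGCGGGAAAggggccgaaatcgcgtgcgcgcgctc

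Mcm5 and Mcm6 carry overlapping words read on both strands, Mcm6 a further word nearer the start, and Orc1, Cdc6, Gins3 and Pola1 a single word each. Of the 35 genes, 15 (42.9%) hold a word in the window, beside 2.6% of the 27025 gene symbols in the RefSeq table. Those symbols were not limited to the genes tested here. Genes with a word had a median log2 fold change of -0.63, from -0.89 to 0.15, and the 20 without one a median of -0.40, from -0.95 to 0.04. Pole4, the gene that was called higher, also holds a word, and Mcm10 holds none in its window. The pentamer CCAAT was in 57.1% of the 35 genes and 41.1% of all symbols, and the cell cycle homology words TTTGAA and TTCGAA in 25.7% and 21.7%, on either strand. These matches are letters in a window and not evidence of binding.

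Below the gene, most individual transcripts were not called. Of 175 transcripts of these genes that passed the filter, 46 were lower (a background of 8.14% of 40897 transcripts) and 5 were higher (8.5%). Of 88 protein-coding transcripts 40 were lower, 2 were higher and 46 were not called, and of 64 retained-intron transcripts 4 were lower, 3 were higher and 57 were not called. The share of a transcript in its gene's counts changed by more than 0.1 at an adjusted p under 0.05 (limma) for 0 of 173 transcripts in 41 genes, against 0.624% of all shares tested. With no minimum size, 10 passed, in Mcm10, Pole, Prim2, Rfc2, Rfc5 and Rpa2, where 4.27% of all shares did, and 26 of the 173 had an unadjusted p under 0.05.

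The 5 transcripts that rose were Mcm10-205, Rfc2-205, Rfc2-202, Rfc5-202 and Rpa2-206, all of them short forms that hold intronic bases of the main transcript. Mcm10-205, annotated as a retained intron, was at 0.241, 0.373 and 0.628 CPM (lowest, median, highest) in Control and 2.43, 3.63 and 5.90 CPM in Tardbp gRNA libraries, a log2 fold change of 3.33 (SE 0.247, adjusted p = 6.89e-07). Every Tardbp gRNA library was above every Control library. It thus made up 0.137 to 0.321% of Mcm10 counts in Control and 2.53 to 7.51% in Tardbp gRNA libraries (adjusted p = 0.00104, limma), while the coding Mcm10-201 fell (log2 fold change -1.04). The transcript keeps the 126-base intron 4 of Mcm10-201, shown with its first and last bases in capitals, and ends 69 bases inside the next intron.
Mcm10-205, chr2:5007202-5007327, strand -: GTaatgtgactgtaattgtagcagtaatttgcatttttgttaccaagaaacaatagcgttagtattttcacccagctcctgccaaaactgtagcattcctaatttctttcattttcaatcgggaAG

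Rfc2, the loader subunit that fell most, had the largest shift of transcript shares among the 10. Rfc2-201, the full-length coding form, fell from 272.8, 300.1 and 326.4 CPM in Control to 143.6, 160.3 and 187.9 CPM in Tardbp gRNA libraries, a log2 fold change of -0.87 (SE 0.0578, adjusted p = 2.65e-07). Rfc2-205, which stops in intron 6, rose from 6.99, 8.35 and 12.5 CPM to 10.6, 17.4 and 22.9 CPM, a log2 fold change of 0.95 (SE 0.161, adjusted p = 6.02e-04), with 1 Tardbp gRNA library inside the Control range. Its share of Rfc2 counts was 2.21 to 4.20% in Control and 5.95 to 11.9% in Tardbp gRNA libraries (adjusted p = 2.48e-04, limma), with no overlap. Rfc2-202, which starts in the same intron, also rose, from a mean of 0.812 ± 0.250 to 1.62 ± 0.375 CPM (SD, n = 8; log2 fold change 0.99, adjusted p = 0.00424). On the TPM scale, where a count in a short transcript weighs more, the mean of Rfc2 went from 115.8 to 87.5, beside 302.2 to 184.6 on the CPM scale. Rfc2-205 runs 415 bases past the end of exon 6 and ends 8 bases after a run of 11 GT units, in capitals in its last 90 bases, which lie in intron 6 of Rfc2-201.
Rfc2-205, chr5:134591545-134591634, strand +: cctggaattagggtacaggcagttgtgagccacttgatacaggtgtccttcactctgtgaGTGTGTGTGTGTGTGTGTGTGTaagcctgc

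TDP-43 is known to bind UG repeats in RNA. Runs of at least 4 GT or TG units were therefore counted in the transcripts, a choice made after the values were seen. Of the 5 transcripts that rose, 4 hold such a run and in each it lies in an intron of the main transcript: 11 units in Rfc2-205 and 4 in Rfc2-202 (both intron 6), 4 in Rfc5-202 (intron 3) and 27 in Rpa2-206 (intron 8). Mcm10-205 holds none. Among all 175 replication gene transcripts tested 37 (21.1%) hold a run, as do 10 of the 46 that fell. Over all 40897 transcripts the share was 19.7%, and over the 3475 called higher 20.6%. Rpa2-206 was at 0.399 ± 0.159 and 0.840 ± 0.166 CPM (log2 fold change 1.07, adjusted p = 0.00535) and Rfc5-202 at 1.14 ± 0.356 and 1.89 ± 0.501 CPM (log2 fold change 0.73, adjusted p = 0.0255), both a small part of genes whose total fell.

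**Figure D5:**
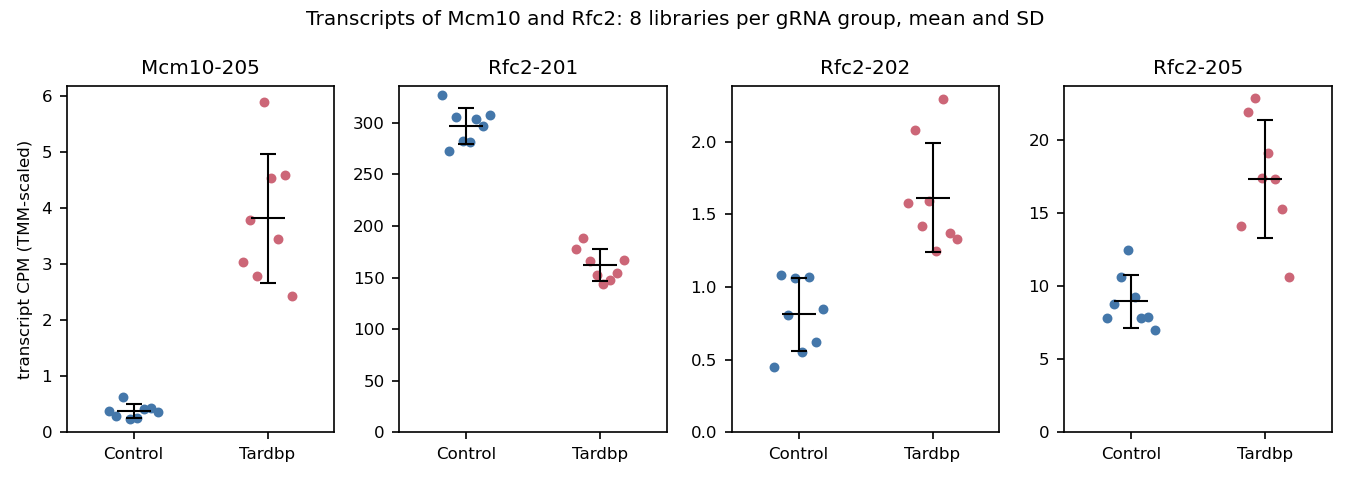
CPM of 4 transcripts in each library (points, in order of library number; each axis from 0 with its own scale), with the group mean and SD (bars, n = 8). The short forms Mcm10-205, Rfc2-205 and Rfc2-202 are higher in Tardbp gRNA libraries, while the full-length Rfc2-201 is lower.

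The authors' splicing table gives 1 inclusion value (Psi) per group for 624 nodes of these 43 genes, with no replicates. Its header does not name the groups, and the first value was taken as Control from the study's text. Nodes were counted by the size of the difference alone. The study also filtered its events on probability and read number, which was not done here, so nodes with few reads are included. Of 586 nodes other than transcript ends, 0 differed by more than 0.1 between groups, where 2.85% of all such nodes did. These include 0 of 527 core exons (0.932% of all core exon nodes) and 0 of 38 transcript start nodes (20.4% of all transcript start nodes). The largest difference of a core exon was 0.0599. Of 38 transcript end nodes 8 differed by more than 0.1, where 21.5% of all transcript end nodes did. These were the paired ends of 4 genes. In Pole the upstream end (chr5:110337132-110337453, mm10) went from 0.306 in Control to 0.628 in Tardbp gRNA cells. The short downstream end directly next to it (chr5:110337454-110337474, mm10) went from 0.693 to 0.372. In Orc2 the upstream end went from 0.0532 to 0.162. In Dbf4 and Prim1 the upstream end went the other way, from 0.373 to 0.259 and from 0.14 to 0.0378.

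Other genes were counted in 9 lists, from partners at the fork to mitochondrial replication, repair synthesis and mitosis. Of the 100 genes tested 67 were lower and 6 higher, with a median of -0.37, beside 23.3% lower among all genes tested and 42.9% among genes at or above the lowest replication gene's level. Fork protection and alternative clamp loaders fell throughout (9 of 9, median -0.58), from Wdhd1 (-0.98, SE 0.0844), which tethers polymerase alpha to the helicase, to Tipin (-0.16, SE 0.0472). Nucleotide supply fell as well (8 of 8, median -0.35), from Rrm1 (-0.72, SE 0.0565), the large subunit of ribonucleotide reductase, to Dut (-0.20, SE 0.0483), which hydrolyses dUTP. In chromatin assembly and maintenance 7 of 8 fell, from Dnmt1 (-0.99, SE 0.0940), the maintenance DNA methyltransferase, to Asf1a (0.15, SE 0.0822, adjusted p = 0.154), which was not called. Of the licensing and firing partners 6 of 9 fell, with Recql4 lowest (-0.86, SE 0.0874) and Donson highest (0.07, SE 0.193, adjusted p = 0.804).

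Other synthesis and topology genes were mixed, with 4 lower and 2 higher of 9. The nuclease Dna2 had the lowest value (-1.11, SE 0.0983), and Pold4, the smallest subunit of polymerase delta, had the highest (0.66, SE 0.0871), at 9.55, 12.5 and 14.3 CPM in Control and 16.6, 19.2 and 22.2 CPM in Tardbp gRNA libraries. For Pold4 every Tardbp gRNA library was above every Control library, while the 3 larger subunits of its complex fell. In the list of E2F factors, pocket proteins and S phase cyclins 10 of 17 were lower and 1 higher, from E2f8 (-0.84, SE 0.0979) to E2f6 (0.27, SE 0.0888), both repressors of E2F targets. Of the activators, E2f3 fell, with a log2 fold change of -0.50 (SE 0.0987, adjusted p = 4.40e-04), while E2f1 and E2f2 were not called, at 0.06 (SE 0.202, adjusted p = 0.821) and -0.08 (SE 0.0767, adjusted p = 0.446). These 3 were named after their values were seen.

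Lists outside nuclear replication gave these counts. In mitochondrial DNA replication 5 of 10 were lower and 1 higher, from Polrmt (-0.54, SE 0.0710) to Polg2 (0.36, SE 0.0842), the accessory subunit of the mitochondrial polymerase. Among repair and translesion polymerases 2 of 10 were lower and 1 higher, from Polq (-0.91, SE 0.0805) to Mad2l2 (0.18, SE 0.0700). Both counts are to be read against the 23.3% and 42.9% of genes called lower above. Among genes of G2 and mitosis 16 of 20 were lower and 1 higher (median -0.49), from the checkpoint kinase Bub1 (-0.87, SE 0.0980) to the centromeric histone Cenpa (0.15, SE 0.0435).

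The fall of the replication genes was also examined within subsets of the libraries. In an earlier look at these data, libraries numbered 1 to 3 stood apart from those numbered 4 to 8 in both groups. Among libraries 4 to 8 alone 41 replication genes were lower (median -0.49), and among libraries 1 to 3 alone 28 were lower (median -0.43), with 3 libraries a group. The difference of the effect between the subsets was called for 0 of the 43 genes and 0% of all genes (edgeR interaction), with 1 gene, Rfc2, at an unadjusted p under 0.05 (-0.62 in libraries 1 to 3 and -0.79 in libraries 4 to 8). The letters M and F, deposited under the heading sex, were unevenly spread (Control 3 and 5, Tardbp gRNA 5 and 3). In libraries 1 to 3 every Tardbp gRNA sample was M, while Control libraries 2 and 3 were F. Between the letters the effect differed for 0 of the 43 genes and 0% of all genes (edgeR interaction), with 0 at an unadjusted p under 0.05. With the RNA concentration as a covariate, whose values do not overlap between the groups, 33 genes were lower, with a median of -0.52. With upper quartile scaling 38 were lower, and 38.8% of all calls were lower in place of 49.8%.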

How the data were processed

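RNA-seq libraries (SMART-Seq v4, Nextera XT, not stranded) were aligned by the authors to mm10 with HISAT2 2.1.0, SAMtools 1.9 and StringTie 2.1.0, and the deposited values are estimated counts per gene and transcript. The authors' deposited Psi values (Whippet) are 1 fraction per group. Of each table of counts, 10 columns were not used, and 26345 lines without an annotated identifier (0.0836 to 0.132% of counts) were left out. Genes and transcripts were tested on the deposited estimated counts with edgeR 4.0.16 (TMM, filterByExpr with minimum count 10, quasi-likelihood test, two-sided), shares with limma 3.58.1, and with DESeq2 1.42.0 as an alternative, in R 4.3.3. Log2 CPM used a prior count of 2. TPM came from transcript counts and GENCODE M21 lengths. Scripts were tested on simulated data. All 43 genes are named. Full values are given for Mcm2 to Mcm7, Cdc6, Cdt1, Gmnn, Cdc45, Pcna, the 3 lowest, the 3 highest and those not called, and the lowest and highest gene of each other list is named. Chtf8, with 2 gene identifiers, was left out. The genes and lists were chosen with earlier results of these data known. The depth was 56016533 to 94801105 counts per library.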

Additional observations from a re-analysis of the deposited data

Results flagged for a closer look

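In 88 groups of 8 values (43 replication genes and Tardbp in each gRNA group), 3 held a sample apart from the others by Dixon's criterion at the 95% level, where chance, at about 1 in 20, gives about 4.4. Rfc4 was at 154.3 CPM in Tardbp gRNA library 6, under 166.9 to 177.0 CPM in the others. Rpa1 was at 674.4 CPM in Control library 3, above 590.2 to 622.6 CPM in the others. Tardbp was at 110.4 CPM in Tardbp gRNA library 3, under 129.8 to 147.2 CPM in the others. No explanation was tested.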

How the results depend on the processing

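The count of 41 lower replication genes was the same with DESeq2, RLE factors, no filter, a minimum count of 50, number class or letter as a covariate, libraries 4 to 8 alone and without each library in turn. Upper quartile scaling gave 38 (Orc5, Gins4 and Pole3 were lost), a median of -0.38, and 38.8% of all calls lower in place of 49.8%, with the median of all genes at 0.12. The RNA concentration covariate gave 33 lower, 0 higher and a median of -0.52, libraries 1 to 3 alone 28 lower and 0 higher, with 41 other pathway genes called in place of 73. Of the called replication genes 19 had a size over 0.5 on the log2 scale, 19 of them lower and 0 higher, and at an adjusted p under 0.01 0 were higher. Without 1 library the median ran from -0.50 to -0.45 and the count called higher from 0 to 1. Removal of the length trend, chosen after seeing the data, gave 42 lower and 0 higher and reversed Rpa3 to -0.14. Transcript shares called went from 0 to 10 with no minimum difference. The labels do not say whether the replicate numbers pair the libraries. Same-numbered libraries had correlations of deviations from -0.00 to 0.16, with 2 of 8 over 0.1. Of the libraries, 2 Control and 3 Tardbp gRNA ones matched their own number best. Such weak correlations cannot decide whether same-numbered libraries were paired in the experiment. With the number as a replicate block 41 replication genes were lower, 1 was higher, and 7645 genes were called in place of 7783. The block changed none of the 43 calls, nor did DESeq2. Over all genes 7783 were called, 2697 with the RNA concentration covariate and 1696 in libraries 1 to 3. The causes were not tested. Limits are 8 libraries a group, 1 flow cell, no strand, and 15 of the 43 genes sharing exon bases with another gene.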
